A study of Sparus aurata with 53 samples.

Results

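In whole larvae of gilthead sea bream (Sparus aurata), 126 of 13940 measured probes followed a daily course with a fitted peak from 3 to under 6 h after lights-on, in the first part of the light phase. They were chosen by their own course over the day. A 24 h cosine was fitted to the log2 level over all 53 arrays, and a probe was kept with an R2 of at least 0.3, an amplitude (from the fitted mean to the peak) of at least 0.4 log2 and a signal well above background on at least 27 arrays. The same thresholds held for 888 probes at any hour of peak, which was 6.37% of all probes, with 186 of them in the 3 hours before and 48 in the 3 hours after this window. The daily course of the 126 genes is therefore given as a description, with no test. A gene description from the study was at hand for 58 of them, and the other 68 are named by the code of their clone.

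In vertebrates the circadian clock is a loop in which CLOCK and BMAL1 activate the period and cryptochrome genes, whose proteins then repress CLOCK and BMAL1. Nuclear receptors of the ROR family tie this loop to BMAL1 transcription, and in zebrafish many tissues respond to light directly. Clock outputs include enzymes and transporters of metabolism, and in zebrafish the timing of DNA replication and mitosis follows the light-dark cycle. DNA replication takes place in S phase, where polymerases, the sliding clamp PCNA and the origin recognition complex act, and mismatch repair and the checkpoint kinase Chk1 guard the copied strands.

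The larvae were 30 days old, were kept under 12 h of light and 12 h of darkness with food on offer, and were sampled at zeitgeber times 0, 3, 6, 9, 12, 15, 18, 21 and 24 h, with light on at 0 h and off at 12 h. No larva was treated, and all groups share this light cycle and rearing, so a rhythm driven by light and a rhythm of the clock itself cannot be told apart. Each of 6 larvae per time, and of 5 at 12 h, was hybridised to its own one-colour array. The study states that a pair of larvae was taken from each of its tanks at every time. Which tank a larva came from was not given, so tank effects are part of the spread between larvae. Larvae of the same tank may not be independent, and the SDs, standard errors and tests here do not account for this. In RNA of whole larvae, fewer cells of a type and less RNA per cell cannot be told apart. Levels are log2 signals relative to the 75th percentile of the array, so that 0 is the level of that percentile. On each array 74.2 to 94.3% of the probes were well above background and the 75th percentile of intensity was 141 to 504. The number of arrays limits the precision. The arrays lay on 7 slides, each with several sampling times but none with all. Slides were scanned on 3 dates, slide 7 on a date of its own. Slide 7 held larva 6 of 9, 12, 15, 18, 21 and 24 h and no larva of 0, 3 or 6 h. In the mean of the 126 genes this larva was the lowest at 9, 12, 15, 18 and 21 h, but not at 24 h. Slide and time of day are thus partly confounded. With the slide as a block the same thresholds gave 121 genes, 113 of them shared. Limma found a slide effect at an adjusted p under 0.05 in 70 of the 126 genes against 63.6% of all probes.

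A pair of larvae stood apart in genes described here. Larva 5 of 3 h was low in DNA replication and repair genes, and larva 6 of 18 h was low in photoreceptor genes and had the largest deviations of all arrays from the mean of its sampling time, with an SD over the probes of 0.77 log2. The array of larva 5 of 3 h had 89.2% of probes above background and that of larva 6 of 18 h had 84.2%, both within the range of the others. The number of genes in the group is given with and without each of these larvae. So are the 3 h means and correlations of the replication and repair lists for larva 5 of 3 h, and the photoreceptor fits for larva 6 of 18 h. Other values include both larvae unless stated.

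Averaged over the 126 genes, each set to a mean of 0, the level of the 6 larvae at lights-on, 0 h, was 0.36 ± 0.07 (SD, n = 6). In the light it was 0.63 ± 0.18 (3 h), 0.53 ± 0.09 (6 h) and 0.16 ± 0.09 (9 h). Without larva 5 of 3 h the mean at 3 h was 0.70 ± 0.05 (n = 5). The 5 larvae taken as the light went off (12 h) had -0.29 ± 0.19. The lowest value, in the dark, was -0.68 ± 0.17 for the larvae of 15 h, followed by -0.62 ± 0.24 for those of 18 h and -0.31 ± 0.09 for those of 21 h, and it was 0.23 ± 0.17 at the next lights-on, 24 h. The lowest of the 6 larvae at 3 h had a mean of 0.28 and the highest at 15 h had -0.51, so that these groups did not overlap. Of the sampling times, 3 h held the highest mean of 60 genes, 6 h of 54, 0 h of 8, 24 h of 3 and 12 h of 1, and the lowest mean was that of 15 h in 71 genes, of 18 h in 36, of 21 h in 12 and of 12 h in 7. Every larva of 3 h exceeded every larva of 15 h in 61 of the 126 genes and in 2.7% of all probes. The rule used these levels, so the difference is only a description.

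**Figure D1:**
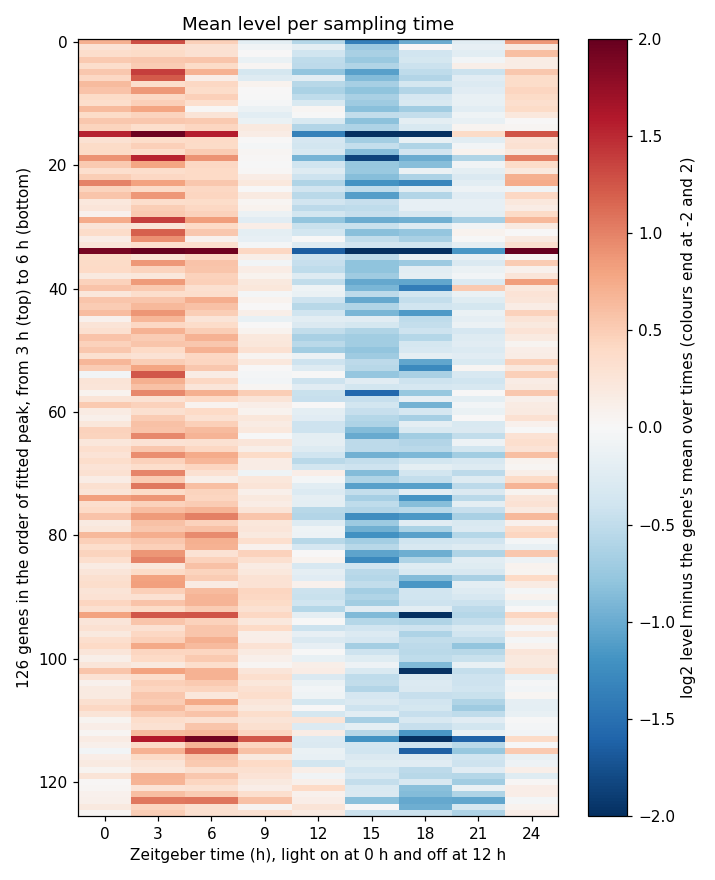
Mean log2 level of each of the 126 genes (rows, in the order of fitted peak from 3 h at the top to 6 h at the bottom) at the 9 zeitgeber times (columns), minus the mean of that gene over the times, in colours that end at -2 and 2. Red cells gather at 0 to 6 h and at 24 h, and blue cells at 15 and 18 h, while genes with later peaks lie closer to 0 at 0 h.

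The fitted peaks had a median of 4.11 h with a median standard error of 0.50 h, so that neighbours in the order of peaks were often not separable. Between 3 and 4 h lay 56 peaks, between 4 and 5 h 40, and between 5 and 6 h 30. Gene descriptions thinned out along this order, with 33 of 56, 24 of 40 and 1 of 30 genes described. A description here needs a clone code matched to a gene that the study named, while the study states that all genes of its array were annotated. These counts thus describe the matching of names, not the genes. The amplitude ranged from 0.40 to 3.11 log2 with a median of 0.57, against 0.18 over all probes, and R2 from 0.30 to 0.89. The difference between the highest and the lowest mean over the 9 times had a median of 1.29 log2 units. The mean levels of the genes ran from -4.14 to 6.11 with a median of -0.06, and those of all probes from -7.32 to 9.87 with a median of -2.15, and 107 of them were above background on every array.

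**Figure D2:**
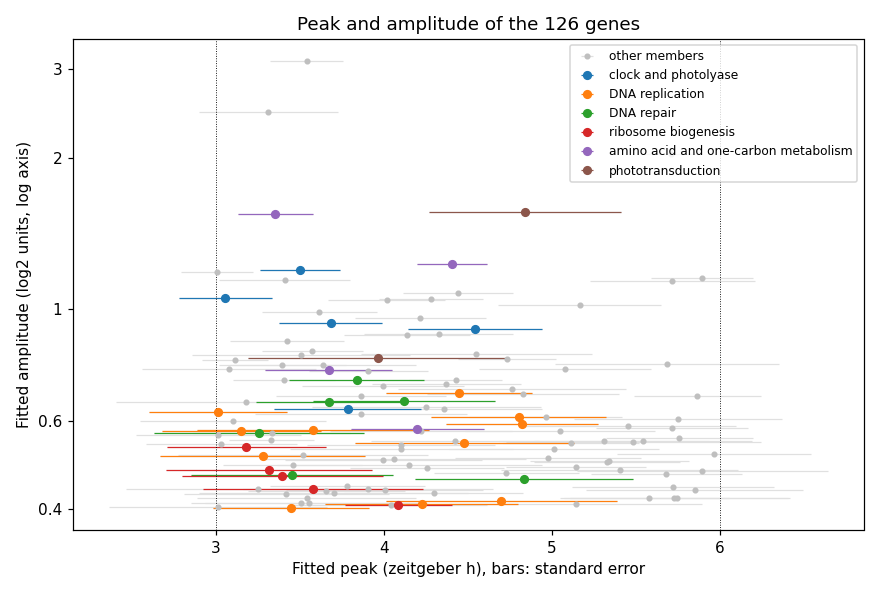
Fitted amplitude (log2 units, log axis) against fitted peak (zeitgeber hour) of the 126 genes, with bars for the standard error of the peak and dotted lines at 3 and 6 h. Coloured points are the genes of 6 named lists and grey points the remaining genes. Clock genes have amplitudes of 0.63 to 1.19, genes of DNA replication 0.40 to 0.68, and ribosome biogenesis genes lie between 3.18 and 4.09 h.

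Of 10 measured genes of the clock and photolyase list, 5 belonged to the group, with peaks from 3.06 to 4.54 h. Here and below, the measured genes of a list are only those whose name was matched to a clone code. Genes of the array without such a match are not counted. The study drew many of its named genes from this same data set, several of them by their likeness to clock genes, so counts over any list here are not independent evidence. Cryptochrome-1 (probe C2_13248), a repressor of the clock loop, had a median over the larvae of 1.05 (0 h), 1.85 (3 h), 1.04 (6 h) and 0.10 (9 h) in the light phase, of -0.43 (12 h) when the light went off, and of -0.67 (15 h), -0.67 (18 h), -0.25 (21 h) and 0.95 (24 h) from there to the next morning. Its larvae ranged from 1.23 to 2.23 at 3 h and from -0.92 to -0.27 at 15 h. All larvae of 0, 3, 6 and 24 h lay above all larvae of 12, 15, 18 and 21 h. The rule used these levels, so this is only a description, and the share of all probes so separated was not computed. The fit gave an amplitude of 1.19 ± 0.08 (SE) and a peak at 3.50 ± 0.24 h. The highest and lowest means of cryptochrome-1 differed 5.17-fold.

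Cryptochrome-2 (C2_63385), its paralogue, ranged from -1.40 to -0.50 with a median of -0.81 at 3 h and from -3.54 to -3.08 with a median of -3.34 at 15 h. It peaked at 3.06 ± 0.28 h with an amplitude of 1.05 ± 0.08, and its means differed 5.54-fold. The nuclear receptor ROR-gamma (C2_53107), an activator of BMAL1 transcription in mammals, had a lowest, median and highest level of -1.26, -0.78 and -0.36 at 3 h and of -3.21, -2.90 and -2.44 at 18 h, its lowest time. It peaked at 3.68 ± 0.31 h with an amplitude of 0.94 ± 0.08. The intervals of 2 standard errors around the peaks of these 3 genes overlapped.

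Period 1 (C2_21343), the other repressor of the loop in this group, had levels of -2.77, -2.32 and -1.81 (lowest, median, highest) at 3 h and of -4.90, -4.16 and -3.74 at 15 h. Its signal was above background in only 4 of 6 larvae at each of 15, 18 and 21 h, so that its lowest levels are near the limit of the measurement. From 0 to 12 h the medians of period 1 lay between -3.01 and -2.32. Its fitted peak of 4.54 ± 0.40 h was the latest of the clock genes here. The interval of 2 standard errors around it overlapped those of cryptochrome-1, ROR-gamma and cryptochrome DASH. Cryptochrome DASH (C2_8882), a photolyase-like flavoprotein, had levels of -2.64, -1.95 and -1.59 at 3 h and of -3.71, -3.43 and -2.80 at 15 h, with an amplitude of 0.63 ± 0.08 and a peak at 3.78 ± 0.44 h. The clock genes outside the group were period 3 with a peak at 23.51 h, nocturnin, a deadenylase, at 0.81 h, BMAL1 at 10.01 h and CLOCK at 10.80 h. Period 2 (C2_58904) had a fitted peak at 3.00 h and an amplitude of 0.81 but was above background on only 5 arrays, and it alone was left out by the detection minimum.

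**Figure D3:**
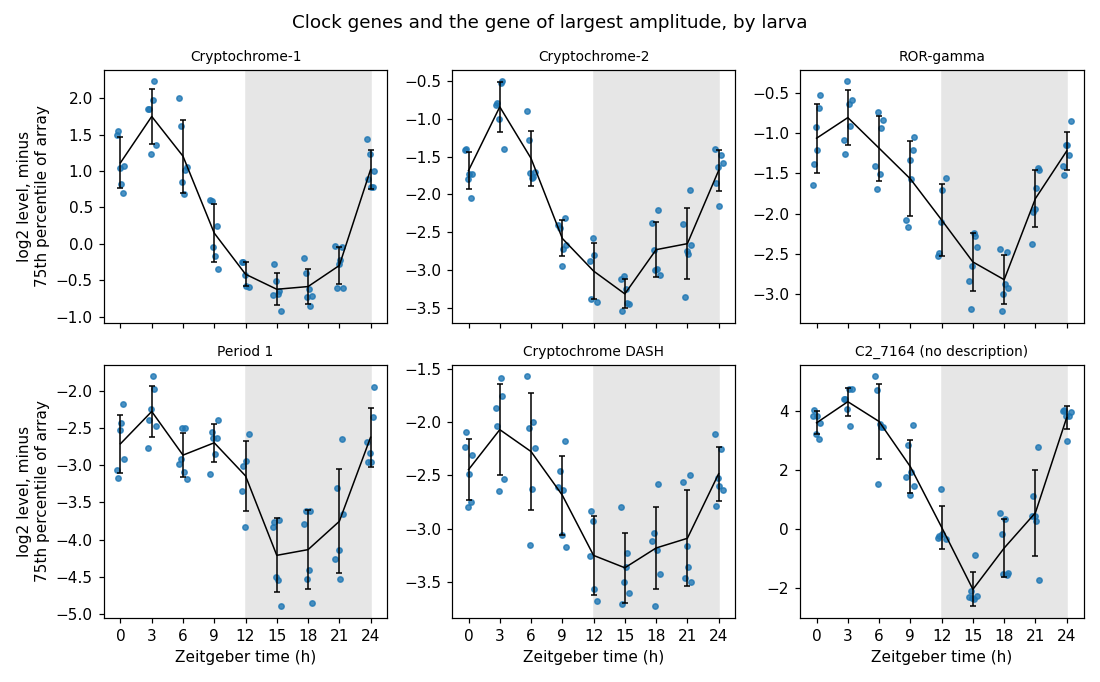
Log2 level relative to the 75th percentile of the array in each larva (points) against zeitgeber time in hours, with the mean and SD of each time (line and bars) and the dark phase in grey, for the 5 clock and photolyase genes and C2_7164, the gene with the largest amplitude. The 6 larvae of 3 h exceed the 6 larvae of 15 h in cryptochrome-1, cryptochrome-2, ROR-gamma, period 1 and C2_7164, and in cryptochrome DASH the lowest of 3 h (-2.64) is above the highest of 15 h (-2.80).

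The amino acid and one-carbon list had 4 of 9 measured genes in the group, with amplitudes of 0.58 to 1.54. Tyrosine aminotransferase (C2_3540), which starts tyrosine breakdown in the liver, had levels of 3.01, 3.26 and 3.58 (lowest, median, highest) at 3 h and of -0.33, -0.15 and 0.26 at 15 h. The groups were far apart, the means differed 10.5-fold, and the peak lay at 3.35 ± 0.22 h with an amplitude of 1.54 ± 0.09. High affinity cationic amino acid transporter 1 (C2_20564), which carries arginine and lysine into cells, had levels of 3.49, 4.13 and 4.62 at 6 h and of 1.46, 1.75 and 2.50 at 15 h, a 4.74-fold range of means and a peak at 4.41 ± 0.21 h. S-adenosylmethionine synthase isoform type-2 (C2_972), which makes the methyl donor of the cell, had an amplitude of 0.75 ± 0.08, and the glutamine carrier sodium-coupled neutral amino acid transporter 3 (C2_10464) one of 0.58 ± 0.06. The genes of the list outside the group included L-threonine 3-dehydrogenase with a peak at 23.90 h and S-adenosylmethionine decarboxylase at 23.83 h.

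DNA replication was the largest list in the group, with 11 of 14 measured genes, amplitudes of 0.40 to 0.68 log2 and peaks from 3.01 to 4.82 h. Proliferating cell nuclear antigen (PCNA, C2_228), the sliding clamp that holds polymerases on DNA, had a lowest, median and highest level of 6.26, 6.82 and 7.15 at 6 h and of 5.17, 5.50 and 5.79 at 15 h, so these groups did not overlap. At 3 h PCNA was 5.15 in larva 5, below the larvae of 15 h, and 6.39 to 6.88 in the others. Its amplitude was 0.59 ± 0.07, its peak 4.82 ± 0.45 h and the range of its means 2.44-fold.

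WD repeat and HMG-box DNA-binding protein 1 (C2_21008), which links the replicative helicase to polymerase alpha, had levels of -0.28, -0.15 and 0.25 at 6 h and of -1.78, -1.51 and -1.17 at 15 h, and an amplitude of 0.68 ± 0.08. The DNA polymerase delta catalytic subunit (C2_10309), which copies the lagging strand, had -0.97, -0.61 and -0.16 at 6 h and -2.24, -1.91 and -1.74 at 15 h, with a peak at 3.01 ± 0.41 h, on the edge of the window. Replication protein A 70 kDa subunit (C2_6841), which coats single-stranded DNA, had -2.001, -1.69 and -1.01 at 6 h and -3.03, -2.97 and -2.60 at 15 h. In all 3 genes the larvae of 6 h lay above those of 15 h without overlap. For these genes, and for PCNA, Chk1 and Msh6, the share of all probes without overlap between 6 and 15 h was not computed. The rule used these levels, so the separation is only a description. At 3 h larva 5 lay below the highest larva of 15 h in all 3 genes. Its level was -1.68 against -1.17, -1.97 against -1.74 and -3.32 against -2.60, in the order above. The remaining genes were the origin recognition complex subunits 4 and 5, chromosome transmission fidelity proteins 8 and 18, the DNA polymerase alpha catalytic subunit, GINS protein PSF1 and replication factor C subunit 3, with amplitudes of 0.40 to 0.57. The matched genes of the list outside the group were replication factor C subunit 5 with a peak at 23.65 h, DNA polymerase epsilon subunit 2 at 2.91 h and the ribonucleotide reductase subunit M2 B with an amplitude of 0.22. Others that the study describes, such as MCM licensing factors and the primase subunits, are not counted in this list.

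The DNA repair list had 6 of 10 measured genes in the group, with peaks from 3.26 to 4.84 h. Checkpoint kinase Chk1 (C2_11938), which halts the cell cycle on stalled replication, had levels of 0.27, 0.49 and 0.70 at 6 h and of -1.31, -0.90 and -0.60 at 15 h, an amplitude of 0.72 ± 0.08 and a peak at 3.84 ± 0.40 h. The mismatch repair protein Msh6 (C2_11812), which takes part in recognising mispaired bases, had -1.51, -1.44 and -1.29 at 6 h and -3.55, -2.72 and -2.32 at 15 h. In both genes these groups did not overlap, which is again only a description. At 3 h larva 5 lay below the highest larva of 15 h in both, with -1.07 against -0.60 for Chk1 and -2.59 against -2.32 for Msh6. The helicase DDX11 (C2_26487) had an amplitude of 0.65 ± 0.08, homologous-pairing protein 2 one of 0.47 ± 0.08 and the endonuclease RBBP8 (C2_13531), which trims broken DNA ends, one of 0.46 ± 0.08. BRCA2 peaked at 5.60 h with an amplitude of 0.38, just under the minimum, and Fanconi anemia group D2 protein peaked later, at 6.82 h.

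Lists of other cell cycle phases gave no more than a single gene. Of 9 measured regulators of the G1 to S transition, only Myb-related protein B (C2_16487), a transcription factor of cycling cells, belonged to it, with an amplitude of 0.62 ± 0.11 and a peak at 3.86 ± 0.63 h. None of 14 measured genes of G2 and mitosis did, and their fitted peaks lay from 8.10 to 16.44 h. None of 14 matched proteasome genes and none of 12 matched chaperones belonged to it either. Many genes of these lists were named from a cluster that the study formed on these same arrays and that peaks later in the day. Their absence was thus largely set in advance, and nothing is read from it.

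Larva 5 of 3 h had lower levels than the other 5 larvae of its time in all 11 genes of DNA replication and all 6 of DNA repair in the group. It was the lowest in 55 of all 126 genes. Among measured genes of the lists outside the group it was the lowest in 1 of 3 of replication, with a median difference of -0.47, and in 3 of 4 of repair, with -0.87. The mean of the replication genes, each centred on 0, was -0.79 in this larva and 0.48 to 0.81 in the others, and the mean of the repair genes was -0.77 against 0.51 to 1.11. The median difference from the other larvae was -1.50 for the replication and -1.53 for the repair genes of the group, and it lay between -1.56 and -1.50 with every scaling tried (75th percentile, quantile, median). In the same larva the mean of the 5 clock genes was 1.31, inside the range of 0.77 to 1.37 of the others, and the mean of the amino acid genes was 0.81 against 0.71 to 1.01. It was the lowest larva in none of the clock genes, in 1 of 5 ribosome biogenesis genes, in 9 of the 14 genes of G2 and mitosis, and in 16.5% of all probes. Without larva 5 of 3 h, the mean at 3 h was 0.65 ± 0.13 (n = 5) for replication and 0.78 ± 0.25 for repair, in place of 0.41 ± 0.60 and 0.52 ± 0.67 with it. The same thresholds then gave 136 genes, of which 120 were shared, with BRCA2 among the new ones, and the median amplitude of the replication genes was 0.62 in place of 0.57. What set this larva apart was not tested.

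**Figure D4:**
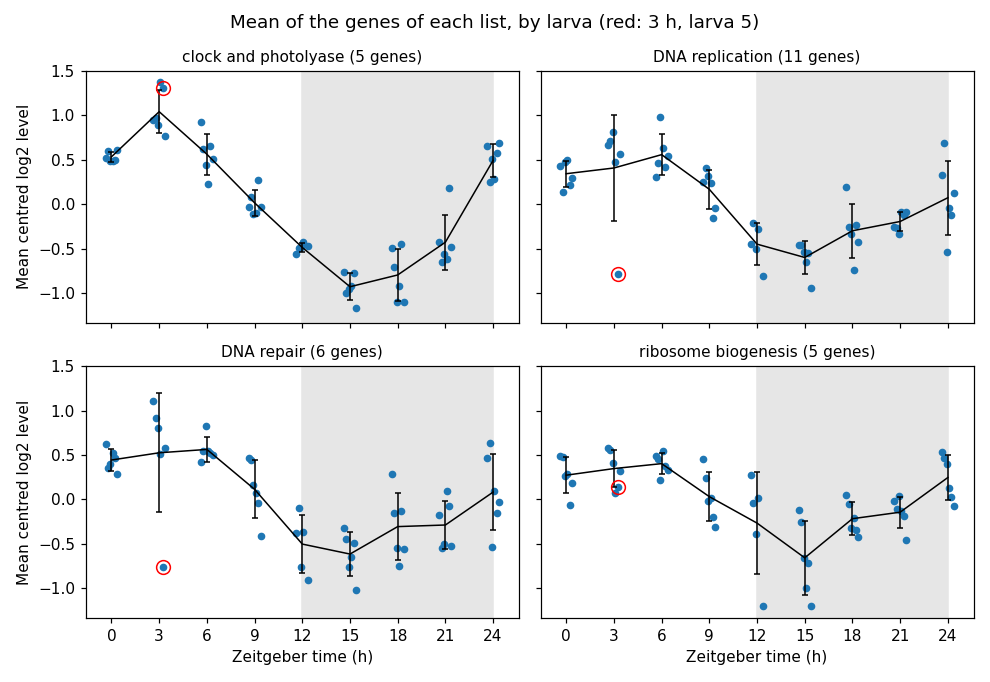
Mean of the genes of 4 lists in each larva (points; each gene centred on 0, log2 units) against zeitgeber time in hours, with the mean and SD of each time (line and bars) and the dark phase in grey. The circled larva 5 of 3 h lies at -0.79 for DNA replication and -0.77 for DNA repair, below all other larvae of its time, and at 1.31 for the clock genes, among them.

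Ribosome biogenesis genes had small amplitudes close to the minimum. The group held 5 of 16 measured genes, although 13 of the 16 had a fitted peak between 3 and 6 h. Protein SDA1 homolog (C2_6748), needed for export of the large ribosomal subunit in yeast, had levels of 3.60, 4.09 and 4.37 at 3 h and of 2.29, 2.80 and 3.49 at 15 h, an amplitude of 0.53 ± 0.07 and a peak at 3.18 ± 0.47 h. The 60S ribosomal protein L7-like 1, glutamate-rich WD repeat-containing protein 1, transducin beta-like protein 3 and bop1 had amplitudes of 0.41 to 0.48. In all but SDA1 and bop1 the larvae of 3 and 15 h overlapped. The measured genes outside the group with a peak in the window, such as nucleophosmin with an amplitude of 0.32, fell short of 0.4.

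Of phototransduction genes, only 2 were matched to a probe, and both belonged to the group. Others that the study describes, such as an arrestin and phosducin, are not tied to a clone code in the sources used here and were not analysed, so nothing is said of the pathway as a whole. The 2 genes encode the gamma subunits of the cGMP phosphodiesterases of cones and rods, which hold that enzyme in check in the dark. The cone subunit (C2_55059) had levels of 5.11, 5.52 and 5.78 (lowest, median, highest) at 6 h, of 2.45, 3.45 and 4.13 at 15 h and of -4.91, 3.01 and 3.47 at 18 h. The rod subunit (C3_c26523) had 4.81, 5.23 and 5.70 at 3 h, 3.44, 3.94 and 4.17 at 15 h and -1.59, 4.11 and 4.65 at 18 h. The lowest value at 18 h was that of larva 6 in both. Without it the amplitude fell from 1.56 to 1.23 for the cone subunit and from 0.80 to 0.59 for the rod subunit, R2 went from 0.44 to 0.72 and from 0.31 to 0.63, and both stayed in the group.

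The undescribed gene C3_lrc63466, second by amplitude, had a value of -6.81 in the same larva, below background, against 1.21 to 3.19 in the other larvae of 18 h. Its levels were 5.44, 5.73 and 6.19 at 3 h and 0.22, 0.95 and 1.50 at 15 h, and without larva 6 of 18 h its peak moved from 3.31 to 2.93 h, out of the window. Larva 6 lay at least 3 log2 units below all other larvae of 18 h in 5 of the 126 genes and in 114 of all 13940 probes. Beside the 3 genes above, these were C3_c16558 (-6.81 against -3.01 to -1.46) and C3_c6790 (-4.90 against -1.29 to -0.04). The rule used the values of this larva, so the counts are only a description. Alpha-crystallin B, a lens protein, was at 0.60 in larva 6 and at -0.50 to 0.73 in the others. A single gene in RNA of whole larvae does not show the state of the lens, which was not tested. Without larva 6 of 18 h, 123 genes met the thresholds, 121 of them shared. The part of photoreceptor content in these results was not tested.

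**Figure D5:**
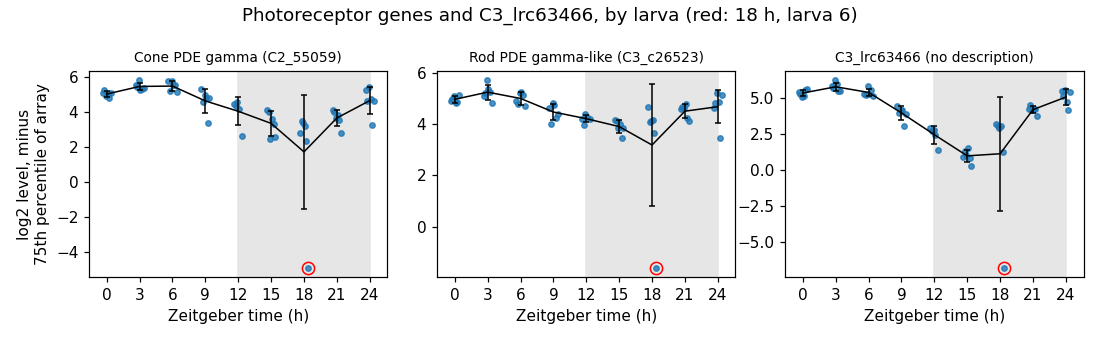
Log2 level relative to the 75th percentile of the array in each larva (points) against zeitgeber time in hours, with the mean and SD of each time (line and bars) and the dark phase in grey, for the cone and rod phosphodiesterase gamma subunits and C3_lrc63466. The circled larva 6 of 18 h has -4.91, -1.59 and -6.81, and the other 5 larvae of 18 h lie between 1.21 and 4.65.

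The largest amplitude of all belonged to C2_7164, a clone with no description. Its lowest, median and highest levels were 3.50, 4.43 and 4.77 at 3 h, 1.15, 1.85 and 3.53 at 9 h, -2.40, -2.31 and -0.89 at 15 h and 2.99, 3.90 and 4.06 at 24 h. The means of C2_7164 at 3 and 15 h differed 83.9-fold, with an amplitude of 3.11 ± 0.18 and a peak at 3.54 ± 0.22 h. C3_c50623 had levels of -1.52, -0.98 and -0.89 at 6 h and of -6.81, -5.16 and -4.37 at 18 h, with a peak at 5.71 ± 0.17 h. It was above background in 3 of 6 larvae at 18 h, so its range of 17.4-fold rests partly on signals near background.

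Of the other undescribed genes, C2_5756 had an amplitude of 1.18 and the earliest peak of the group at 3.01 h, C2_16964 had 1.15 with a peak at 5.89 h, and C2_7258 had 1.14 with a peak at 3.41 h. C2_5756 ranged from 0.84 to 1.52 at 3 h and from -1.85 to -0.79 at 15 h. C2_16964 ranged from -2.88 to -1.01 at 6 h and from -4.46 to -3.61 at 21 h, and it was above background in 5 of 6 larvae there. Of the 68 undescribed genes, 8 had an amplitude of at least 1 log2 unit.

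The 24 described genes on no list had amplitudes of 0.42 to 1.07 and peaks from 3.03 to 5.17 h. They included protein-glutamine gamma-glutamyltransferase 2 (C2_39921), which cross-links proteins, with 1.07 ± 0.10, and the mitochondrial carrier SCaMC-2-A (C2_81283) with 1.04 ± 0.10. SCaMC-2-A was not above background in every larva of 18 h. The mitochondrial protease YME1L1 (C2_6122) had 0.79 ± 0.04 with a peak at 3.11 ± 0.20 h. A type II keratin, an epidermal marker, had 0.89 ± 0.11, and sterol 26-hydroxylase (C2_7004), an enzyme of bile acid synthesis, had 0.54 ± 0.06. These genes were chosen for mention after their values were seen.

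The larvae of 24 h were taken at the same clock time as those of 0 h, a day later, and a cosine of 24 h gives both the same value, so the difference does not enter the fitted peak or amplitude. It does lower R2, as does any other departure from the cosine, so the R2 minimum favours genes with small differences, and nothing is read from how many of the 126 genes passed here or in the tests of the cosine's shape. No gene of the 126 and 0% of all probes passed limma's test with Benjamini-Hochberg adjustment, and the smallest adjusted p was 0.958. At an unadjusted p under 0.05 there were 4 genes, or 3.17%, against 3.22% of all probes. One of the 4 was higher at 24 h (all probes, 2.25%) and 3 were lower (all probes, 0.968%). The smallest p belonged to the c-Fos-like gene, an immediate-early transcription factor, which was higher at 24 h by 0.53 ± 0.20 (SE). C3_c26996 was lower at 24 h, with -0.52 ± 0.20, and so was WD repeat and HMG-box DNA-binding protein 1, with -0.52 ± 0.22, and in limma the adjusted p of each of these was 0.958. The direction was lower at 24 h in 91 of the 126 genes with a median of -0.13, while 5492 of all 13940 probes were lower, with a median of 0.06. With quantile scaling 92 of the genes (median -0.16) and 7046 of all probes (median -0.003) were lower. With median scaling these were 98 (median -0.18) and 6680 (median 0.01). The larvae of 0 h lay on slides 1 to 6 and those of 24 h on slides 2 to 7. In the mean of the 126 genes, the larvae of 24 h on slides 2 and 3 had 0.48 and 0.43. Those on slides 4 to 7 had 0.09 to 0.15. These directions were not computed with the slide as a block, so a slide difference is not separated from them.

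The 6 repair genes were all lower at 24 h than at 0 h, with a median difference of -0.38 log2, and 9 of the 11 replication genes were, with a median of -0.30, though none passed the test. For the 5 clock genes the median difference was -0.04, for the 5 ribosome biogenesis genes -0.02, and for the 4 amino acid genes 0.01. The slides differed between these times as given above, and these differences too were not computed with the slide as a block. The larvae of 24 h also spread more widely for replication, with an SD of 0.41 against 0.15 at 0 h, and for repair, with 0.43 against 0.12.

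Departure from a plain cosine was tested with terms of a 12 h period added to the fit. None of the 126 genes passed the adjusted threshold, against 0.1% of all probes, and 23 had an unadjusted p under 0.05 against 4.24% of all probes. The smallest p was that of cryptochrome-1, with a 12 h amplitude of 0.32 and an adjusted p of 0.0574 in limma. It passed with quantile scaling (0.028), with the slide as a block (0.0022) and with the larva number as a block (0.0028). It did not pass with median centring (0.182), with a linear term over the 24 h (0.186) or with normexp background correction (0.307). Without larva 5 of 3 h its adjusted p in limma was 0.131. Next came microsomal glutathione S-transferase 2 (C2_35678), a detoxifying membrane enzyme, and cryptochrome-2, both with an adjusted p of 0.177, then C3_c5930 with 0.277 and C3_c11352 with 0.65. Microsomal glutathione S-transferase 2 had levels of 0.19, 0.77 and 1.04 at 3 h and of -1.83, -0.17 and 0.62 at 15 h, and only at 18 h were its levels all below 0, at -2.70, -2.19 and -0.78. Over the 126 genes the 12 h amplitude had a median of 0.22 times the 24 h amplitude.

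In the test of all 9 means against the cosine, 2 of the 126 genes passed, against 0.158% of all probes. The c-Fos-like gene (C3_c18240) had an adjusted p of 0.0193 in limma, and C3_c5930 one of 0.0273. Levels of the c-Fos-like gene were 0.30, 0.50 and 1.41 (lowest, median, highest) at 0 h, 1.83, 1.99 and 2.24 at 3 h, 0.43, 0.86 and 1.47 at 6 h and 0.61, 0.70 and 0.91 at 9 h. All larvae of 3 h thus exceeded all of 0, 6 and 9 h, though no share of all probes was computed for this. At 24 h its levels were 0.40, 1.19 and 2.24, which overlapped those of 3 h. Its adjusted p was 0.165 with median scaling and 0.0608 without larva 5 of 3 h. C3_c5930 stayed between medians of -2.32 and -1.56 from 0 to 12 h, had medians of -3.13 at 15 h and -3.18 at 18 h and was back at -1.63 at 21 h. The adjusted p of C3_c5930 was 0.461 with normexp background correction and 0.0562 with the slide as a block.

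The spread between larvae of the same time does not set the fitted peak, but it is part of the residual behind R2, so what follows is a description. Deviations from the mean of the sampling time were correlated between genes over the 53 larvae, whose values share an array, its scaling and a slide. For pairs of replication genes the median Pearson r was 0.64 (55 pairs, all positive, median Spearman rho 0.50), and for pairs of repair genes it was 0.72 (15 pairs, rho 0.64). Pairs of ribosome biogenesis genes had 0.62 (10 pairs, rho 0.53), and pairs of a replication and a repair gene 0.63 (66 pairs). Without larva 5 of 3 h the medians were 0.50 for replication, with a lowest pair at -0.20, and 0.63 for repair, with a lowest pair at 0.24. With the slide effect removed and all 53 larvae kept, the medians were 0.70 for replication and 0.69 for repair.

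Pairs of clock genes had a median r of 0.09 (10 pairs, from -0.53 to 0.70, rho 0.04), pairs of amino acid genes 0.06, and pairs of a clock and a replication gene -0.02. Over all pairs of the 126 genes the median was 0.09. With the slide effect removed, pairs of clock genes had a median of 0.17 with a lowest pair at -0.04. Pairs of amino acid genes then had 0.28, pairs of a clock and a replication gene -0.15, and all pairs of the 126 genes 0.04. The medians of the clock and amino acid lists were thus higher with the slide effect removed, and this change was not tested. All pairs of repair genes were thus above 0 with and without larva 5 of 3 h. All pairs of replication genes were above 0 only with it, though without it their median was still 0.50. Pairs of clock genes lay on both sides of 0 either way. The difference between the lists was not tested. The median SD within a sampling time was 0.39 for the 126 genes, 0.39 for the 11722 probes above background on at least 27 arrays and 0.43 for all probes.

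Membership at the thresholds was a matter of small differences. The lowest amplitude inside was that of chromosome transmission fidelity protein 8 (0.403), and C2_34177 with 0.396 was just outside. The lowest R2 inside was 0.3004 (C2_18401), and C2_710 with 0.2985 was outside. At the early edge C2_84305 with a peak at 2.98 h was outside, and at the late edge C2_13574 with 5.97 h was inside and C2_29097 with 6.18 h outside. The lowest number of arrays above background inside was 42 (C2_45874). By their peaks 91 probes in the window missed the amplitude alone and 52 missed R2 alone.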

How the data were processed

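Whole larvae were profiled singly on custom oligonucleotide arrays with 60-base probes. Per the file headers, the authors extracted each spot's intensity with Agilent Feature Extraction 11.5.1.1 and deposited the scanner output of every array with a table of log2 values. The deposited log2 table, with a correlation per array of at least 0.9987 with the centred values computed here, served as an alternative only. Once every probe computed here was centred on its own median, the 2 sets differed by a median of 0.00555 log2, so the deposited values are on a log2 scale and centred per probe.

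Control spots (536 of 15744) were left out, log2 of the processed signal minus the 75th percentile of the array was taken, and spots of a probe were averaged. Membership was set on all 13940 probes. For values and tests, 974 spots flagged as outliers were left out. No spot was saturated. A least-squares cosine gave peak and amplitude. Tests were run with limma 3.58.1 in R 4.3.3 over all probes, with Benjamini-Hochberg adjustment at 0.05: 24 h against 0 h in a fit of the 9 times, a 12 h harmonic, and lack of fit of the cosine. They were checked on simulated data with independent noise for each probe. Those data held no slide effect, so the check does not cover one. The larvae are separate animals, but some shared a tank, and tank is in no fit.

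The members and gene lists were chosen with earlier results of these data known. Values in full are given for the 10 genes with the largest amplitude, up to 4 genes a list, the smallest p-values of each test, clock genes outside the group and genes at the thresholds. A gene of the repair list is not reported here by itself. Scanner files give no gene names, so names come from the study's own tables, where some lists were chosen on these samples. Alternatives were other background corrections, scalings, thresholds, the slide or larva number as a block, and leaving out larvae. The choice of the larvae left out singly was made after seeing the data.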

Additional observations from a re-analysis of the deposited data

Results flagged for a closer look

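For 28 genes given with values and 7 means over genes, the farthest larva of each sampling time was set against the range of its time, and 25 of 315 groups exceeded the 95% critical value of Dixon's test. Chance alone flags about 1 in 20 groups, and the genes of a list move together in a larva, so the flags are not separate events.

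A low larva at 3 h, larva 5 in the replication and repair genes, had -1.07 for Chk1 (nearest larva 0.31), -1.68 for WD repeat and HMG-box DNA-binding protein 1 (-0.35), -1.97 for DNA polymerase delta (-0.67), -3.32 for replication protein A 70 kDa subunit (-1.73) and 5.15 for PCNA (6.39). The mean of the replication genes was -0.79 (nearest 0.48), that of the repair genes -0.77 (0.51), that of all 126 genes 0.28 (0.64) and that of the undescribed genes 0.31 (0.64). C2_16964 also had a low larva at 3 h, at -2.46 (nearest -1.84).

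At 18 h the low larva, larva 6, had -6.81 for C3_lrc63466 (nearest 1.21), -4.91 for the cone phosphodiesterase gamma subunit (2.33) and -1.59 for the rod subunit (3.67). Low larvae of the photoreceptor genes were also found at 24 h, with 3.22 for the cone (nearest 4.61) and 3.45 for the rod subunit (4.62), and at 12 h, with 2.64 for the cone subunit (4.18).

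The remaining flags were single high or low larvae. C2_7164 had a high larva at 15 h with -0.89 (nearest -2.12), one at 12 h with 1.35 (-0.19) and a low one at 24 h with 2.99 (3.84). Tyrosine aminotransferase had a high larva at 15 h with 0.26 (nearest -0.11), Chk1 at 21 h with 0.0697 (-0.46), DDX11 at 6 h with -0.38 (-0.80), and Msh6 a low one at 15 h with -3.55 (-2.78). The mean of the clock genes had a high larva at 21 h with 0.18 (nearest -0.43), and that of the repair genes at 6 h with 0.83 (0.55).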

How the results depend on the processing

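The rule gave 126 genes. It gave 69 (57 of them shared) with normexp background correction of the median spot signal and 57 with an amplitude of at least 0.6. Under the other settings it gave 94 to 168, and 104 to 166 when the larvae of a number were left out. For 24 h against 0 h no gene passed under any of 18 alternatives. For the 12 h harmonic 1 gene, cryptochrome-1, passed with quantile normalization (adjusted p = 0.028), the slide as a block (0.0022) and the larva number as a replicate block (0.0028). It did not pass with median centring (0.182), a linear term over the 24 h (0.186) or normexp (0.307). Leaving out the larvae of a number gave 0 to 1 genes, and adjusted p-values of cryptochrome-1 from 0.017 to 0.529, all from limma. Without the larvae of number 3 the gene that passed was not cryptochrome-1, whose adjusted p in limma was then 0.225. For lack of fit 2 genes passed. The count was 1 with normexp, 1 with median centring, 1 without larva 5 of 3 h, 4 with the replicate block, and 0 to 1 when the larvae of a number were left out, with adjusted p-values of 0.0368 to 0.24 for the c-Fos-like gene and 0.0243 to 0.301 for C3_c5930. Without the larvae of number 3, the gene that passed for lack of fit was neither of these. Their adjusted p in limma was then 0.175 for the c-Fos-like gene and 0.0537 for C3_c5930. The cause of these changes was not tested.

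No label says what the larva numbers stand for, so whether they pair samples, for example by tank, is not known. Same-numbered larvae had a median correlation of deviations of 0.19 (lowest -0.21), against -0.05 for other pairs, 26 of 53 larvae correlated best with their own number, and 114 of the 208 same-numbered pairs shared a slide. Background corrections of the mean spot signal were not run. Signals near background limit the low levels of some genes, among them period 1, C3_c50623, C2_45874 and SCaMC-2-A.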
